A study of Mus musculus with 14 samples.

Results

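Labelled Irx5 knockout (Irx5KO) and labelled wild-type (WT) hair follicle stem cells of postnatal day 18 (P18) were compared by bulk RNA sequencing, in 3 libraries of each genotype. The libraries were chosen by their titles and make up 6 of the 14 of the series, and the other 8, of day 20, count toward the expression filter and enter 1 alternative fit. IRX5 is a homeobox transcription factor, and the series asks how it bears on repair of DNA damage and on stem cell activation. Cells from mouse back skin were sorted for surface CD34 and a marker that the labels spell CD45f, without Ly-6A/E. Strain, sex and the structure of the knockout allele were not given in the sources used here, nor whether the loss covers the whole animal or skin only. Nothing in the labels ties each library to its own animal. The p-values therefore cover the spread between these libraries alone, which may be technical. A 6-digit code in the deposited data, read as a date, splits the libraries into an earlier code (Irx5KO 1, WT 1 and WT 2) and a later code (Irx5KO 2, Irx5KO 3 and WT 3). WT 3, the single WT library of its code, carries the word het beside its code; it was grouped as WT by its title.

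The bulge is the part of the hair follicle where the stem cells rest between growth phases. BMP signals, FGF18 and the factor NFATC1 hold them at rest, and Wnt, Hedgehog and FGF signals are known to accompany their return to division. ERK is the kinase at the end of the growth factor cascade and switches on its own inhibitors, among them dual-specificity phosphatases and Sprouty-related proteins. NF-kB is a family of factors that is released from inhibitors by cytokines, damage or stress and drives chemokine, cytokine and inhibitor genes.

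The libraries held 20554772 (WT 2) to 70083873 (Irx5KO 3) estimated counts, and 12624 genes had at least 5 CPM (estimated counts scaled to the library's total) in at least 4 of the 14 libraries and were tested. WT 2 and, less so, WT 1 stood apart. Olfactory, vomeronasal and trace amine receptor genes, which bulge cells are not known to use, took 5.45% of the counts of WT 2 and 1.80% of those of WT 1, against 0.405% to 0.585% in the other 4. The 18 T cell markers summed to 1422 CPM of all counts in WT 2 and 441 in WT 1, against 165 to 228 in the others, most of it from Thy1. The 9 adipocyte markers summed to 423 and 139 CPM in WT 2 and WT 1, against 30.3 to 40.3, most of it from Lpl. The same library was an extreme in most genes with a small p. WT 2 was the lowest of the 6 libraries in 276 of the 349 genes higher in Irx5KO at an unadjusted p under 0.05, and the highest in 192 of the 223 lower ones. Over all genes tested it was the lowest in 30.8% and the highest in 34.6%. Genes picked as higher in Irx5KO mostly have a WT library as the lowest, and the reverse holds for those picked as lower. The choice of genes therefore sets part of this contrast. The part of WT 2 in the results below was not tested, and medians of the pathway lists are also given without WT 1 and WT 2. Irx5KO 1 is then alone in its code and adds nothing to the difference. That setting thus compares Irx5KO 2 and 3 with WT 3 alone and in effect repeats the comparison within the later code. The Y-linked gene Ddx3y was at 0.517 to 0.603 CPM in the earlier code and 98.6 to 142 in the later one, so by this gene code and sex cannot be told apart. The sum of the 4 sex-linked genes tested did not split by code. It was 57.5 CPM in Irx5KO 1, 220 in WT 1 and 571 in WT 2, and 285 to 305 in the later code. A sum follows its most abundant gene. The median over the 4 genes of log2(CPM + 0.5) minus the gene's mean did split by code. It was -2.24 in Irx5KO 1, -1.20 in WT 1 and -0.25 in WT 2, and 1.12 to 1.27 in the later code.

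Irx5, the targeted gene (ENSMUSG00000031737.11, mm10 chromosome 8, 92357625 to 92376286, plus strand), was lower in the libraries labelled Irx5KO but still present. It had 50.7, 74.0 and 77.1 CPM in Irx5KO 1 to 3 and 95.9, 106 and 138 CPM in WT 1 to 3. The highest Irx5KO library lay below the lowest WT library, on this scale and in TPM, the length-corrected level that the authors deposited, alike. Means were 67.3 ± 14.4 and 113 ± 22.2 CPM (SD, n = 3 each; two-sided exact permutation test, p = 0.1, the smallest this design allows). The log2 difference, Irx5KO minus WT with the code as covariate, was -0.93 ± 0.20 (standard error, SE; edgeR, adjusted p = 0.686), with -0.99 within the earlier code and -0.87 within the later one. Over 18 other settings it ran from -1.09 to -0.60, and DESeq2 called it (adjusted p = 0.0166, 0.252 to 1 under the other settings). A transcript that lacks a deleted part would still be counted, so the level checks the label and says nothing of the protein.

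The other Iroquois genes that were tested were not lower in Irx5KO. Irx3, a homeobox gene in the same cluster on chromosome 8, had 78.3, 88.4 and 104 CPM in Irx5KO 1 to 3 and 75.0, 51.2 and 96.7 CPM in WT 1 to 3, and the groups overlapped (log2 difference 0.15 ± 0.24, with raw totals -0.0056). Irx1, in another cluster, had 194, 142 and 158 CPM against 121, 74.4 and 142 CPM. The groups did not overlap, but only just, since Irx5KO 2 and WT 3 both round to 142 CPM. The log2 difference of Irx1 was 0.54 ± 0.30, which was 0.99 within the earlier code and 0.09 within the later one. In TPM, which allows levels of different genes to be compared, the WT means were 145 for Irx1, 109 for Irx2, 55.7 for Irx5, 32.6 for Irx3 and 31.9 for Irx4. Irx6, the third gene of the cluster on chromosome 8, was below the expression filter and was not tested, with 1, 0 and 13 counts in Irx5KO 1 to 3 and 52, 189 and 33 in WT 1 to 3. All 3 Irx5KO libraries were below all 3 WT libraries, and WT 2 was again the highest. Of the 6 other genes tested within 1 Mb of Irx5, Mmp2, the gelatinase that digests basement membrane collagen, stood apart in the opposite direction. Mmp2 starts 451 kb past the end of Irx5 (92827291 to 92853420, plus strand) and had 616, 621 and 494 CPM in Irx5KO 1 to 3 and 299, 202 and 266 CPM in WT 1 to 3. All 3 Irx5KO libraries lay above all 3 WT libraries, with a log2 difference of 1.18 ± 0.29 that held within both codes (1.30 and 1.07) but did not pass edgeR's adjustment. Of the other 5 neighbours, log2 differences ran from -0.01 (Fto) to 0.42 (Capns2).

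No gene passed in the comparison of the genotypes. By edgeR's quasi-likelihood test with Benjamini-Hochberg adjustment at 0.05, 0 genes were higher (0%) and 0 lower (0%) of 12624 tested, and the smallest adjusted p was 0.686. At an unadjusted p under 0.05 there were 349 higher and 223 lower, together 572 of the 12624. That is less than the share of 0.05 which such a threshold passes where no gene differs. DESeq2 called 3 higher and 12 lower, and limma voom with sample weights called 0 of each. In 1089 genes (8.63%) all 3 Irx5KO libraries lay above all 3 WT libraries, and in 1131 (8.96%) all lay below. These shares moved with the level of a gene. With the genes split by mean level into 4 bins of 3156, all 3 Irx5KO libraries lay above in 1.96% of the lowest bin and 19.3% of the highest, and below in 14.5% and 2.28%. Positive log2 differences made up 49.0% of all genes, and 23.4%, 35.4%, 56.5% and 80.8% of the bins from lowest to highest. The median log2 difference went from -0.36 in the lowest bin to 0.25 in the highest, and within the earlier code alone from -0.55 to 0.45. Within the later code, which holds neither WT 1 nor WT 2, it went from -0.09 to 0.08. A list of abundant genes is therefore to be read against the highest bin and a list of scarce genes against the lowest.

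**Figure D1:**
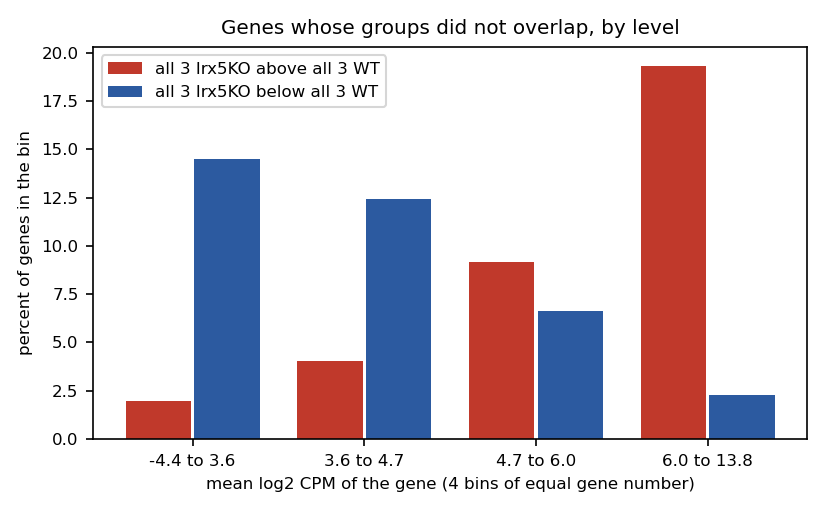
Share of genes whose groups did not overlap, in percent of the genes of a bin, for 4 bins of mean log2 CPM; red bars count genes with all 3 Irx5KO libraries above all 3 WT libraries and blue bars the reverse. The red bar goes from 1.96% in the lowest bin to 19.3% in the highest and the blue bar from 14.5% to 2.28%.

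The 12 genes with the smallest p among those higher in every Irx5KO library were Igfbp7, Gpat3, Cxcl1, Pappa, Dhrs9, Otud1, Mmp2, Etv5, Epgn, Hmox1, Ccl2 and B4galt5. None passed the adjustment, and every one was positive within both codes. Igfbp7, which encodes a secreted binding protein related to those of insulin-like growth factors (IGFs), had 178, 112 and 104 CPM in Irx5KO 1 to 3 and 74.8, 63.6 and 53.3 CPM in WT 1 to 3. Irx5KO 1 was the highest, and the lowest Irx5KO library exceeded the highest WT library by a clear gap; the log2 difference was 1.19 ± 0.21. Pappa, a protease that cleaves IGF-binding proteins, had 54.3, 83.8 and 99.7 CPM against 34.3, 27.1 and 30.2 CPM in the same order of libraries, a log2 difference of 1.21 ± 0.27. Here the 3 WT libraries lay close together and Irx5KO 2 and 3 were highest. Gpat3, an enzyme of triglyceride synthesis, had 46.5, 27.9 and 28.7 CPM against 23.2, 18.7 and 11.9 CPM and a log2 difference of 1.20 ± 0.23. Dhrs9, a dehydrogenase that acts on retinoids, had 43.9, 61.4 and 73.2 CPM against 27.7, 21.0 and 27.2 CPM and a difference of 1.08 ± 0.24. In both genes the groups were apart in each code, with the WT libraries of a code below its Irx5KO libraries. Epgn, a ligand of the EGF receptor, had 23.7, 32.3 and 31.6 CPM against 15.7, 12.4 and 9.83 CPM (1.23 ± 0.32). Hmox1, the haem oxygenase induced by oxidative stress, had 47.3, 54.4 and 88.7 CPM against 28.2, 14.5 and 25.3 CPM (1.32 ± 0.35). The lowest library was WT 3 for Epgn and WT 2 for Hmox1. Otud1, a deubiquitinase, and B4galt5, a glycolipid synthase, had log2 differences of 1.10 ± 0.27 and 1.56 ± 0.41. DESeq2 called 3 of the 12, Igfbp7, Gpat3 and Mmp2.

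The 12 genes with the smallest p among those lower in every Irx5KO library were Fmod, Scd4, Irx5, Dscaml1, Igfn1, C1qtnf1, Sfxn4, Palm2, Fgf1, Olfr1238, Mettl13 and Fcgr2b, and WT 2 was the highest library in 9 of them. Fmod, which encodes the collagen-binding proteoglycan fibromodulin, had the smallest p and was highest in WT 3 instead. Its levels were 4.13, 3.90 and 3.21 CPM in Irx5KO 1 to 3 and 13.1, 15.3 and 17.1 CPM in WT 1 to 3. The WT libraries were all above 10 CPM and the Irx5KO libraries all below 5, and the log2 difference was -2.03 ± 0.36, with -1.78 and -2.27 within the codes. Scd4, a fatty acid desaturase with close paralogs that share reads, had 13.7, 6.74 and 7.30 CPM against 26.2, 29.9 and 19.8 CPM (-1.27 ± 0.27). Dscaml1, a cell adhesion molecule, was at 0.461 to 0.995 CPM in Irx5KO, against 4.02, 12.8 and 4.18 CPM in WT. Its log2 difference was -3.07 ± 0.66. Fgf1, a ligand that binds all FGF receptors, had 13.4, 12.8 and 10.3 CPM against 28.1, 28.4 and 21.5 CPM. The groups of Fgf1 were apart by more than their spread within either group, and its log2 difference was -0.98 ± 0.26. C1qtnf1, a secreted C1q-related protein, had 18.2, 10.3 and 13.3 CPM against 78.8, 64.7 and 21.2 CPM, so that WT 3 lay close to Irx5KO 1 and WT 1 and WT 2 far above (-1.41 ± 0.33). Fcgr2b, the inhibitory IgG receptor of myeloid and B cells, had 4.10, 4.49 and 4.88 CPM against 22.6, 39.9 and 9.49 CPM with WT 3 again the lowest WT library (-1.97 ± 0.55). Palm2, Mettl13, Sfxn4, Igfn1 and the receptor gene Olfr1238 had log2 differences of -1.72, -1.07, -1.65, -2.30 and -1.89. Of these 12, DESeq2 called Fmod, Scd4, Irx5, Dscaml1 and Igfn1.

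**Figure D2:**
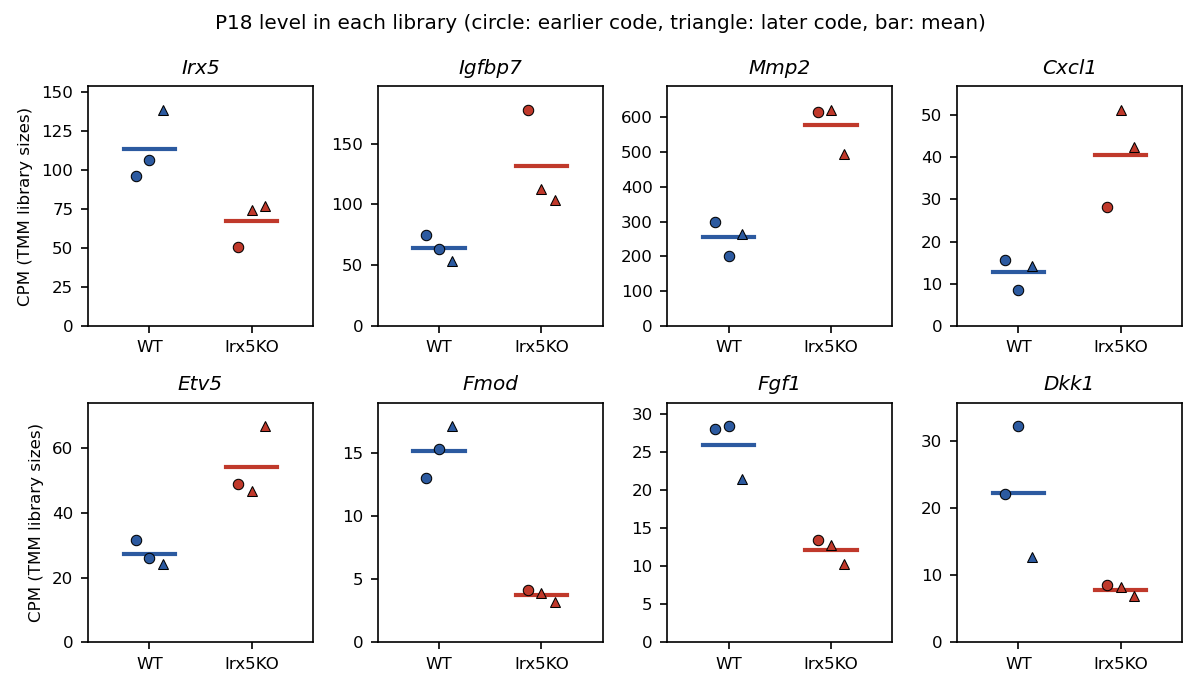
CPM of 8 genes in each library, WT in blue and Irx5KO in red, with circles for the earlier code, triangles for the later one and a bar at the group mean. The groups do not overlap in any of the 8: Irx5, Fmod, Fgf1 and Dkk1 are lower in the libraries labelled Irx5KO, and Igfbp7, Mmp2, Cxcl1 and Etv5 are higher.

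Most genes of the NF-kB and cytokine response had higher levels in Irx5KO, 21 of 24 in both codes, though none passed the adjustment. Among all 12624 genes tested, 3664 were positive in both codes. Of 29 genes listed, 24 were tested. Of these, 22 had a positive log2 difference, against 49.0% of all genes and 80.8% in the highest level bin. In 10, all 3 Irx5KO libraries lay above all 3 WT libraries, against 8.63% of all genes and 19.3% in that bin. The median log2 difference was 0.80, against -0.01 over all genes and 0.25 in the highest level bin, which held 11 of the members. It was 0.83 within the earlier code and 0.81 within the later one. Without WT 1 and WT 2, a setting chosen after the data were seen, the median was 0.84 and 24 of 24 were positive. Like the value within the later code, this rests on WT 3 as the only WT library. Members below the expression filter were Cxcl2, Ccl20, Il1a, Il1b and Csf2. This list and the other lists were chosen with earlier results of these data known.

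The promoters of this group are shown because NF-kB binds a known sequence that can be looked for in them. Promoter windows of 300 bases (250 before to 50 after the start) were taken from RefSeq on GRCm38.p6, with a window for 19 of the 24 genes tested. A match to the NF-kB consensus on either strand was present for 12 of these 19: Bcl3, Csf1, Cxcl1, Il6, Irf1, Nfkb2, Nfkbia, Rel, Sod2, Tnfaip2, Tnfaip3 and Tnip1. A match was present in 5.80% of all 32851 promoter windows, for 6.55% of all genes that have a window and for 8.38% of the tested ones. It was present for 0 of the 11 ERK-list genes that have a window. Of 27 immediate early genes it was present for 5 (18.5%, Egr2, Fos, Fosb, Fosl2 and Nr4a1). The NF-kB list was drawn up from genes known for this response, so its share follows in part from the choice of the list. Matches describe the letters only and say nothing of binding in these cells, and Sod2, with a match, had a log2 difference of -0.15, positive under other scalings. The stretches around the match in Cxcl1 (chr5:90891144-90891213, plus strand), Il6 (chr5:30013040-30013109, plus strand), Tnfaip3 (chr10:19015383-19015452, minus strand) and Nfkb2 (chr19:46304668-46304765, plus strand) are given 5′ to 3′ along the gene's strand, with the matched bases in capitals. Nfkb2 holds 2 matches in this stretch and the others 1.
Cxcl1: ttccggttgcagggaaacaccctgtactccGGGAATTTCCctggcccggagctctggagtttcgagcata
Il6: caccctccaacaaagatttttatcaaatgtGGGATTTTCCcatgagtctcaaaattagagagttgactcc
Tnfaip3: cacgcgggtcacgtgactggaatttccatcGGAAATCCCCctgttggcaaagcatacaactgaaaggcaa
Nfkb2: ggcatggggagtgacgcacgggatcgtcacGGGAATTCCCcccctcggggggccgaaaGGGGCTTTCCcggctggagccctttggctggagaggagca

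Chemokine and cytokine genes had the largest differences of the list. Cxcl1, which attracts neutrophils, had 28.3, 51.2 and 42.4 CPM in Irx5KO 1 to 3 and 15.7, 8.59 and 14.1 CPM in WT 1 to 3. Every Irx5KO library was above every WT library, by more in the later code (1.73) than in the earlier one (1.21), and the log2 difference over both was 1.47 ± 0.32. Ccl2, which attracts monocytes, had 37.3, 54.5 and 85.8 CPM against 23.4, 12.4 and 23.0 CPM and a log2 difference of 1.33 ± 0.35, again with no overlap. Il6, the cytokine that acts through the Stat3 factor, had 21.2, 58.4 and 42.5 CPM against 9.90, 4.98 and 24.5 CPM. Its groups overlapped because WT 3, of the later code, lay above Irx5KO 1, of the earlier code; within each code Irx5KO was higher, and the log2 difference was 1.27 ± 0.33. Among inhibitors that NF-kB itself induces, Tnfaip3 had 282, 482 and 428 CPM against 210.5, 103 and 253 CPM with no overlap and 0.85 ± 0.33 as its log2 difference. Birc3, an apoptosis inhibitor of the TNF receptor complex, had 88.4, 87.5 and 124 CPM against 55.3, 34.8 and 59.5 CPM (0.90 ± 0.27) and no overlap. Both genes were lowest in WT 2, and their lowest Irx5KO libraries stood above WT 3. Bcl3 and Relb, partners of the family, had log2 differences of 0.90 ± 0.37 and 0.73 ± 0.30, and Nfkb2, which encodes the p100 precursor, 0.88 ± 0.36. Irf1, an interferon regulatory factor, had 454, 221 and 418 CPM against 272, 136 and 158 CPM and Icam1, a leukocyte adhesion molecule, 381, 175 and 324 CPM against 269, 134 and 114 CPM. In Irf1, Icam1 and Nfkb2 the groups overlapped, since Irx5KO 2 lay below WT 1, and the differences within the later code were 1.01, 1.12 and 0.91.

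ERK feedback genes and targets were also mostly higher in Irx5KO. All 21 listed genes were tested; 20 had a positive log2 difference, 9 had all 3 Irx5KO libraries above all 3 WT libraries, and none passed the adjustment. Over all genes 8.63% lay above in this way, and 19.3% in the highest level bin. The median was 0.73, with 0.76 and 0.62 within the codes and 0.65 without WT 1 and WT 2. The highest level bin, where 80.8% of all genes were positive, held 11 of the members. Dusp6, the phosphatase that switches off ERK in the cytoplasm, had 314, 443 and 499.6 CPM in Irx5KO 1 to 3 and 201, 98.7 and 202 CPM in WT 1 to 3. WT 2 was the lowest, and each Irx5KO library was above every WT library; the log2 difference was 1.15 ± 0.34. Dusp4, the phosphatase that acts in the nucleus, had 34.3, 24.7 and 55.5 CPM against 18.4, 12.8 and 14.5 CPM (1.30 ± 0.37) and no overlap. Etv5, an ETS-family factor induced by FGF signals, had 49.0, 46.6 and 66.6 CPM against 31.6, 26.2 and 24.0 CPM. Its Irx5KO libraries all lay above 46 CPM and its WT libraries all below 32, and the log2 difference was 1.00 ± 0.26. Myc, a growth regulator downstream of ERK and other routes, had 502, 308 and 427 CPM against 262, 118 and 239 CPM (1.01 ± 0.38). Spred2, an inhibitor of Ras to Raf signalling, had 59.8, 52.4 and 52.4 CPM against 42.6, 30.2 and 38.5 CPM (0.58 ± 0.22). Both had no overlap, with smaller differences in the later code (0.62 and 0.44) than in the earlier one (1.40 and 0.71). Epha2, an ephrin receptor, and Fosl1, an AP-1 subunit, had log2 differences of 1.12 ± 0.39 and 1.41 ± 0.59 with overlapping groups, Irx5KO 2 being below WT 1 in each. Ereg, an EGF receptor ligand at 3.17 to 12.1 CPM, was the single negative member (-0.70; 0.25 without Irx5KO 1).

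**Figure D3:**
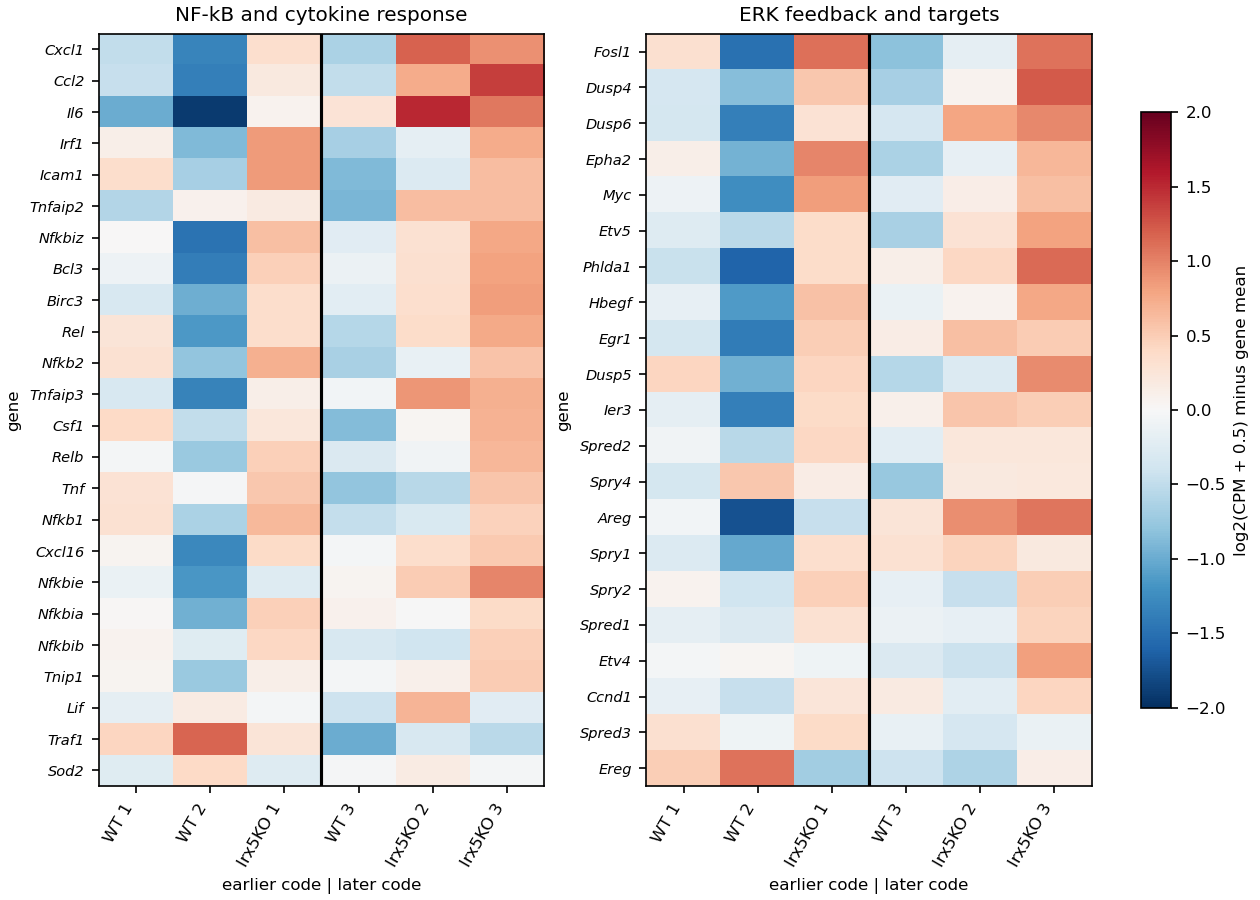
Level of each tested gene of the NF-kB and ERK lists in each library, as log2(CPM + 0.5) minus the gene's mean over the 6 libraries, with libraries grouped by code and the code boundary drawn as a black line. Red is above and blue below the gene's mean; WT 2 is bluest in most rows, and in the later code WT 3 is below both Irx5KO libraries in most rows.

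Immediate early genes, the transcripts that appear within minutes of a stimulus or of tissue dissociation, differed mostly in the earlier code. Of 31 tested, 30 had a positive log2 difference and 12 had no overlap upwards, and the highest level bin, where 80.8% of all genes were positive and 19.3% had no overlap upwards, held 29 of them. The median was 0.72, but 1.17 within the earlier code and 0.22 within the later one, and 0.25 without WT 1 and WT 2. Fos and Jun, subunits of the AP-1 factor, show this split. Fos had 5763, 3742 and 3902 CPM in Irx5KO 1 to 3 and 3258, 1854 and 4577 CPM in WT 1 to 3. WT 3 was above Irx5KO 2 and 3, and within the later code the log2 difference was -0.26 against 1.17 within the earlier one. Jun gave -0.37 and 1.10. The transcription factors Egr3, Nr4a3, Klf10 and Egr2, among the members with the smallest p, were positive in both codes. Egr3 had 1028, 567 and 1115 CPM against 629.6, 223 and 288 CPM, with 1.27 and 1.54 within the codes. Nr4a3, an orphan nuclear receptor, had 305, 292 and 585 CPM against 196, 82.7 and 179 CPM, with 1.13 and 1.29. Klf10, induced by TGF-beta, gave 1.18 and 1.13, and Egr2 0.60 and 1.14. The groups did not overlap for Nr4a3 and Egr2 and overlapped for Egr3 and Klf10. Fos at 1854 to 5763 CPM was among the abundant transcripts of every library, and the part of cell isolation in these values was not tested.

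**Figure D4:**
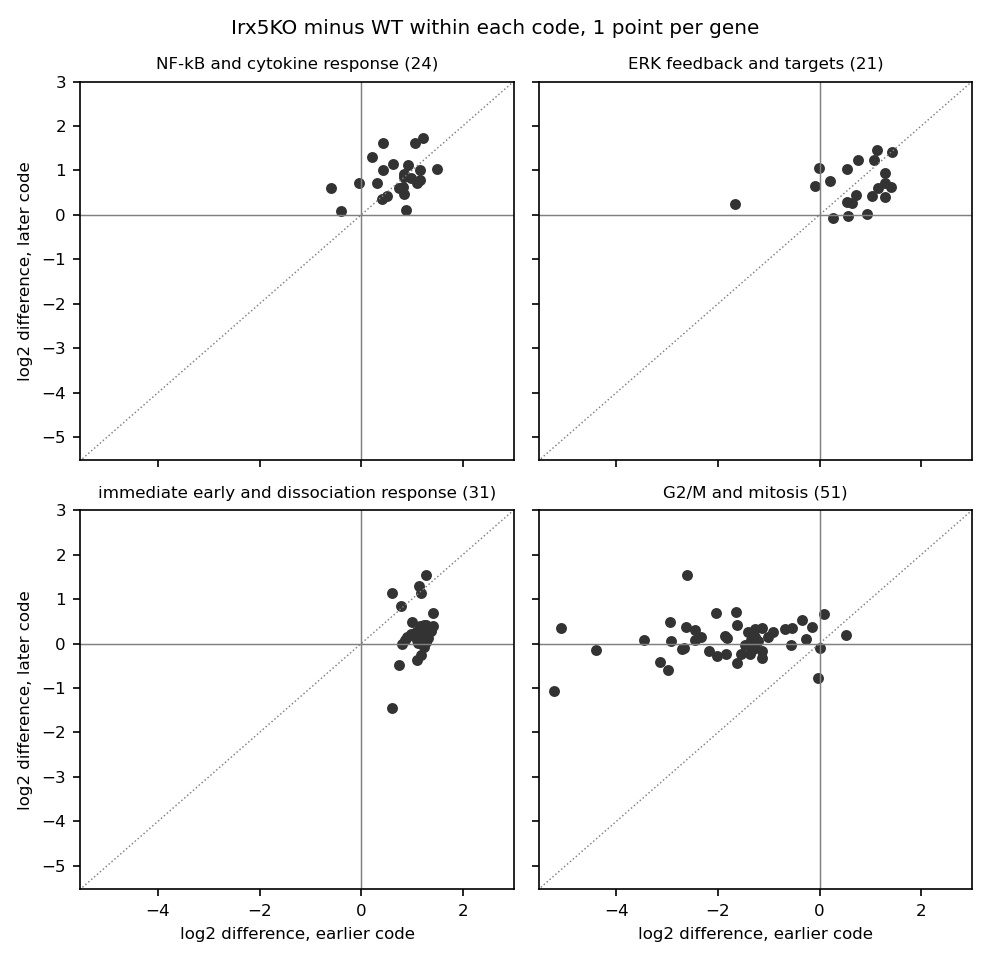
Log2 difference, Irx5KO minus WT, of each tested gene within the earlier code (horizontal axis) and within the later code (vertical axis) for 4 lists; the dotted line marks equal values. NF-kB and ERK genes lie mostly above 0 on both axes, immediate early genes lie to the right but near 0 on the vertical axis, and G2/M genes lie to the left and near 0 on the vertical axis.

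Other stress and cytokine lists leaned the same way with smaller medians. The highest level bin, where 80.8% of all genes were positive, held 9 of the 20 Jak-Stat genes and 8 of the 16 unfolded protein genes. It also held 13 of the 16 heat shock genes and 9 of the 18 TGF-beta genes. In the Jak-Stat and acute phase list 17 of 20 were positive, with a median of 0.59 (0.43 and 0.59 within the codes, 0.61 without WT 1 and WT 2). Timp1, an inhibitor of metalloproteases and a Stat3 target, had 9.59, 15.9 and 27.3 CPM against 6.21, 3.10 and 4.31 CPM and a log2 difference of 1.68 ± 0.53. Its Irx5KO libraries were all above its WT libraries, by 2.32 in the later code and 1.03 in the earlier one. Saa3, an acute phase protein, went the other way at 5.37, 2.49 and 3.29 CPM against 12.6, 33.8 and 5.85 CPM, with no overlap (-1.56 ± 0.54). Osmr, the oncostatin M receptor, had 412, 234 and 408 CPM against 293, 123 and 148 CPM with overlap (1.05 ± 0.41). The unfolded protein and integrated stress list had 14 of 16 positive and a median of 0.46 (0.34 without WT 1 and WT 2), led by Hspa5, the chaperone BiP of the endoplasmic reticulum (735, 865 and 1353 CPM against 524, 294 and 568 CPM, 0.91 ± 0.36). The heat shock list had 14 of 16 positive, but its median was 0.81 within the earlier code, 0.13 within the later one and 0.16 without WT 1 and WT 2. Bag3, a co-chaperone, was the member with the smallest p and was positive in both codes (304, 269 and 324 CPM against 174, 90.2 and 165 CPM, 1.02 ± 0.32). In the TGF-beta list 17 of 18 were positive with a median of 0.30, and 0.39 without WT 1 and WT 2. Hes1, a Notch target, had 56.9, 34.3 and 49.0 CPM against 36.0, 19.7 and 21.0 CPM (1.01 ± 0.30); its groups overlapped because Irx5KO 2 lay below WT 1.

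**Figure D5:**
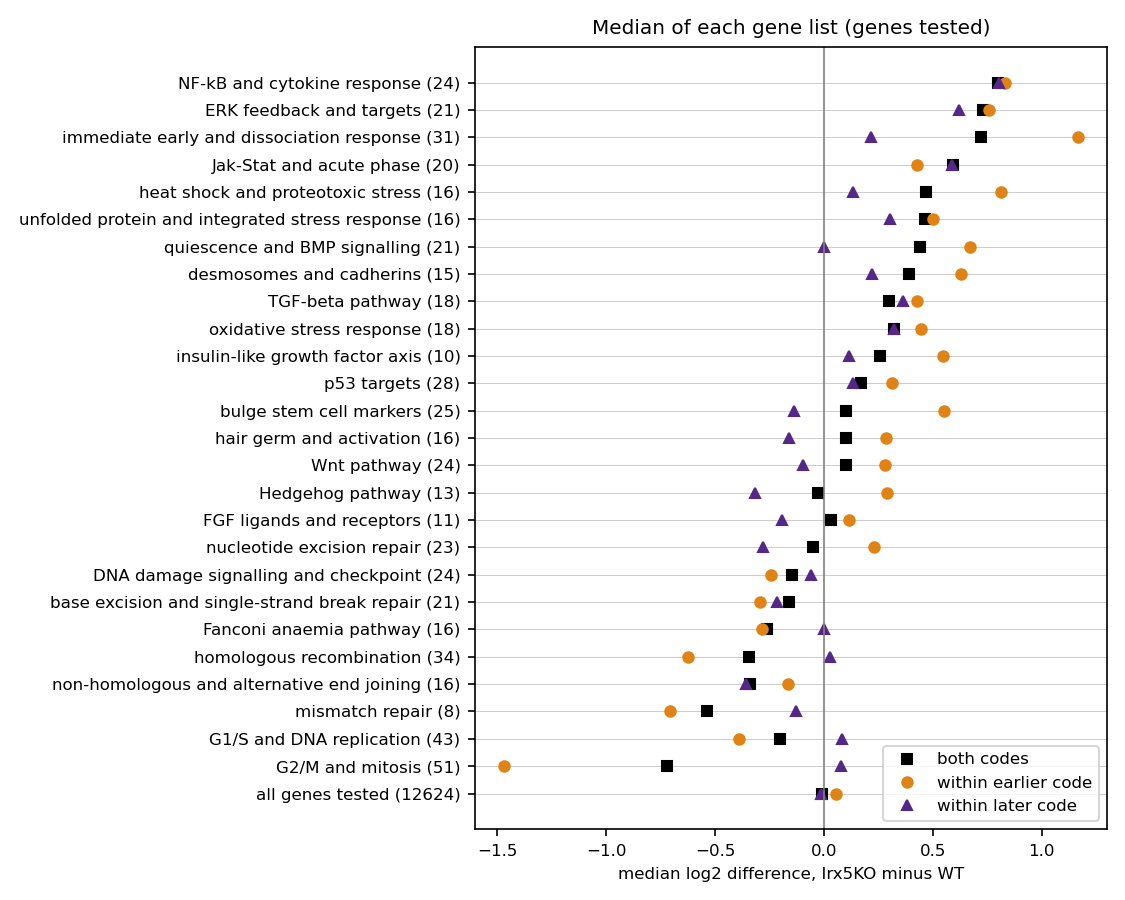
Median log2 difference, Irx5KO minus WT, of 26 gene lists and of all genes tested, with the number of genes tested in brackets; black squares are both codes together, orange circles the earlier code and purple triangles the later code. The NF-kB list has all 3 symbols near 0.80, and the G2/M list has its orange circle at -1.47 and its purple triangle at 0.08.

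Of the 25 markers of bulge identity, 19 were in the highest level bin, and none passed the test between the genotypes. Krt15, a keratin of bulge cells, had 6807, 6918 and 5781 CPM in Irx5KO 1 to 3 and 4936, 5669 and 12758 CPM in WT 1 to 3. Cd34, used in the sort, had 366, 475 and 276 CPM against 269, 399 and 679.7 CPM. WT 3 was the highest library for both, and the log2 differences were -0.32 ± 0.41 and -0.36 ± 0.36. Without WT 3 they were 0.36 and 0.13. Lgr5, a receptor of stem cells of the lower bulge and germ, had 397, 458 and 199.6 CPM against 279.9, 261 and 406 CPM with overlap (0.12 ± 0.38; -0.30 without Irx5KO 1). Of all 25, 16 were positive, 3 were above in all 3 Irx5KO libraries and 1 below. The shares over the highest level bin were 19.3% above and 2.28% below. The list's median was 0.10, with 0.55 within the earlier code, -0.14 within the later one and -0.11 without WT 1 and WT 2. The 3 above were Itga6, the integrin CD49f (846, 707 and 1066 CPM against 661, 306 and 500.0 CPM, 0.82 ± 0.39), and the factors Tcf7l1 (0.42 ± 0.21) and Tcf7l2 (0.35 ± 0.23), and the 1 below was Wif1, a Wnt inhibitor at 0.494 to 5.03 CPM.

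Genes linked to quiescence and BMP signalling had 19 of 21 positive differences and a median of 0.44, which was 0.67 within the earlier code, 0.00 within the later one and 0.03 without WT 1 and WT 2. The highest level bin, where 80.8% of all genes were positive, held 15 of the 21. Cdkn1c, the CDK inhibitor p57, had 14.7 to 20.5 CPM in Irx5KO and 9.77 to 11.7 CPM in WT. All Irx5KO libraries were above all WT libraries, in both codes by a similar amount (0.90 and 0.78; 0.84 ± 0.30 over both). Cdkn1a, the CDK inhibitor p21 and a p53 target, had 310.3, 139 and 215 CPM against 193, 87.7 and 101 CPM and 0.98 ± 0.36, with Irx5KO 2 below WT 1. Nfatc1, which restrains division in the bulge, had 713, 387 and 684 CPM against 538, 294 and 402 CPM with overlap (0.59 ± 0.37). Bmpr2, a BMP receptor, had 351, 407 and 366 CPM against 265, 198 and 256 CPM and no overlap (0.60 ± 0.26), while Smad7, an inhibitor of the pathway, had 0.85 ± 0.35 with overlap. Fgf18, a ligand of the resting phase, had 13.5, 15.0 and 4.45 CPM against 6.88, 18.2 and 25.8 CPM with overlap. In the earlier code Irx5KO 1 lay between WT 1 and WT 2, and in the later code Irx5KO 2 and 3 lay below WT 3. The log2 difference of Fgf18 was -0.65 ± 0.64, and 0.11 without WT 3.

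In the hair germ and activation list, 8 of 16 genes were positive, with a median of 0.10 (-0.13 without WT 1 and WT 2). Cdh3, P-cadherin of the germ and bulge, had 359, 265 and 356 CPM against 237, 161 and 204 CPM, and Runx1, a factor of activation, 290.4, 314 and 304 CPM against 227, 172 and 213 CPM. In both genes all Irx5KO libraries were above all WT libraries, with log2 differences of 0.73 ± 0.28 and 0.54 ± 0.25. Msx2, a homeobox gene of the hair matrix, had 8.20, 8.13 and 4.72 CPM against 10.1, 21.7 and 10.2 CPM in the other direction (-0.81 ± 0.45).

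The Wnt, Hedgehog and FGF lists had medians near 0, of 0.10, -0.03 and 0.03, and of -0.07, -0.29 and -0.16 without WT 1 and WT 2. Dkk1, a Wnt inhibitor, had 8.53, 8.23 and 6.87 CPM in Irx5KO 1 to 3 and 22.1, 32.2 and 12.7 CPM in WT 1 to 3. All Irx5KO libraries were below all WT libraries, with WT 2 the highest, and the log2 difference was -1.21 ± 0.37. Wnt7b, a ligand that bulge cells make, had 9.28, 10.8 and 10.6 CPM against 15.3, 15.2 and 18.8 CPM, where the libraries of a group lay close together and the groups were apart (-0.76 ± 0.29). Nkd1, a feedback inhibitor, had 10.8, 24.7 and 9.89 CPM against 13.6, 20.1 and 51.7 CPM with overlap, WT 3 being the highest (-1.12 ± 0.42). Of the 24 Wnt genes tested, 14 were positive, 0 had all Irx5KO libraries above and 3 had all below (Dkk1, Wnt7b and Wif1), against 8.63% and 8.96% of all genes. The Wnt target Axin2 gave -0.21 and the factor Lef1 -0.01, with overlap and a sign that turned under other scalings in both. Of the 13 Hedgehog genes, 5 were positive. Hhip, the decoy receptor that the pathway induces, had 3.59, 0.672 and 3.52 CPM against 7.02, 16.7 and 8.06 CPM, all Irx5KO libraries being below (-1.83 ± 0.71). Ptch1, the receptor and a target, had 126, 109 and 121 CPM against 91.0, 74.2 and 99.4 CPM and the opposite sign (0.41 ± 0.22), and Gli1, a target and effector, 53.5, 32.5 and 37.5 CPM against 54.5, 46.5 and 71.1 CPM (-0.47 ± 0.28; 0.08 without WT 3). Of 11 FGF ligands and receptors, 6 were positive; Fgf1 is given above. Fgf10, a ligand usually made by fibroblasts, had 6.93, 1.54 and 1.32 CPM against 27.9, 35.2 and 2.50 CPM, where WT 1 and WT 2 held nearly all of it and WT 3 lay below Irx5KO 1 (-1.51 ± 0.44). Fgfr2, a main receptor of epidermal cells, had 492, 434 and 479 CPM against 349.8, 268 and 422 CPM and all Irx5KO libraries above (0.39 ± 0.28).

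No DNA repair list had a member that passed. All 7 lists had negative medians, and these lists hold few abundant genes. The homologous recombination list had 8 of 34 positive and a median of -0.34, with 16 members in the lowest level bin, where the median of all genes was -0.36. Within the codes the median was -0.63 and 0.03, and without WT 1 and WT 2 it was 0.05. Brca1, a scaffold of homologous recombination, had 3.47, 2.49 and 6.55 CPM in Irx5KO 1 to 3 and 8.02, 17.8 and 2.79 CPM in WT 1 to 3. The groups overlapped, WT 2 was the highest and WT 3 below Irx5KO 1 and 3, and the log2 difference was -0.60 ± 0.90. Brca2, a mediator of homologous recombination, had 32.6, 56.0 and 43.4 CPM against 94.2, 362 and 45.0 CPM (-1.33 ± 1.03), with WT 2 far above the rest. The sign of both genes turned without Irx5KO 1, to 0.70 and 0.14. Fancd2, of the Fanconi anaemia pathway, had 0.693, 1.62 and 1.69 CPM against 2.86, 13.2 and 2.32 CPM (-1.96 ± 1.11), and its list a median of -0.26, -0.28 and 0.00 within the codes and 0.03 without WT 1 and WT 2.

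End joining differed from homologous recombination and the Fanconi list in that its median did not rest on the earlier code. The base excision list, given below, was likewise negative within both codes. Of the 16 genes tested 3 were positive, and the median was -0.34, with -0.16 within the earlier code, -0.36 within the later one and -0.33 without WT 1 and WT 2. All Irx5KO libraries were below all WT libraries in 4 of them, against 8.96% of all genes and 12.4% of the second-lowest level bin, which held 7 of the members. These were Xrcc4, Shld1, Shld2 and Aplf. Shld2, a subunit of the shieldin complex that protects broken ends from resection, had 6.72, 8.35 and 8.32 CPM against 10.4, 11.3 and 13.8 CPM. The groups were apart, and the difference was alike within the codes (-0.69 and -0.73; -0.71 ± 0.33 over both). Xrcc4, the partner of DNA ligase IV, had 9.22, 8.64 and 9.75 CPM against 21.1, 58.1 and 13.3 CPM (-1.31 ± 0.57), with WT 2 the highest by far. Shld1 had -1.11 and Aplf, an end-joining scaffold, -1.11, with values nearer 0 within the later code (-0.45 and -0.25). Core factors Xrcc5 and Xrcc6, the Ku subunits, and Prkdc, the catalytic kinase subunit, gave -0.28, 0.07 and -0.14, each of either sign across the other scalings. Under another scaling, TMM over more genes, the median of all genes was 0.29 and that of the list -0.03.

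Of 8 mismatch repair genes 1 was positive, Msh6 (0.48 ± 0.23), and the median was -0.54 (-0.10 without WT 1 and WT 2). Mlh3, a MutL-type mismatch repair protein, had 15.4, 15.5 and 14.8 CPM against 20.4, 29.6 and 25.7 CPM. Its Irx5KO libraries lay close together and below every WT library, with log2 differences of -0.70 and -0.76 within the codes and -0.73 ± 0.27 over both. Base excision repair had 4 of 21 positive and a median of -0.16, and nucleotide excision repair 7 of 23 and -0.05. Without WT 1 and WT 2 the medians were -0.19 and -0.26. Within the earlier and the later code they were -0.29 and -0.22 for base excision, and 0.23 and -0.28 for nucleotide excision. All Irx5KO libraries were below all WT libraries in 4 of the 21 and 3 of the 23 genes. The share was 8.96% over all genes and 12.4% in the second-lowest level bin, which held 11 and 12 of the members. Smug1, a glycosylase that removes uracil, was below in all Irx5KO libraries (6.93, 8.23 and 7.33 CPM against 12.9, 38.7 and 9.74 CPM, -1.11 ± 0.61). Of 24 genes of damage signalling 8 were positive, with a median of -0.15 (-0.03 without WT 1 and WT 2). Chek2, a checkpoint kinase, had 4.58, 6.45 and 4.76 CPM against 8.77, 17.7 and 9.05 CPM (-1.11 ± 0.48), all Irx5KO libraries being below. Mdc1, which gathers repair factors at breaks, had 103, 115 and 127 CPM against 80.6, 61.5 and 85.8 CPM (0.52 ± 0.21), all Irx5KO libraries being above.

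Targets of p53 had 19 of 28 positive differences and a median of 0.17 (0.16 without WT 1 and WT 2). Beside Cdkn1a, the members with the smallest p were Pmaip1, the apoptosis gene Noxa (159.9, 338 and 503 CPM against 90.5, 42.5 and 204 CPM, 1.15 ± 0.36), and the stress kinases Plk3 (0.98 ± 0.36) and Plk2 (353, 285 and 500.2 CPM against 261, 112 and 166 CPM, 1.08 ± 0.42). Of these, only the Irx5KO libraries of Plk2 were all above its WT libraries. These members are known to respond to other stress routes too.

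Division genes were scarce in all libraries, and their difference rested on the earlier code. Of 51 G2/M genes tested 4 were positive, with a median of -0.72. It was -1.47 within the earlier code, 0.08 within the later one and 0.12 without WT 1 and WT 2. The lowest level bin held 38 members. Of all genes in that bin 23.4% were positive, and their median was -0.36, with -0.55 within the earlier code and -0.09 within the later one. Mki67, a marker of cycling cells, had 14.9, 23.8 and 28.0 CPM in Irx5KO 1 to 3 and 36.8, 35.4 and 20.5 CPM in WT 1 to 3. WT 1 and WT 2 were the highest and WT 3 lay below Irx5KO 2 and 3; the log2 difference was -0.47 ± 0.41, and 0.34 without Irx5KO 1. Cenpf, a centromere protein, had 4.61, 6.76 and 7.91 CPM against 18.9, 41.4 and 8.04 CPM (-1.41 ± 0.75), and Birc5, survivin, 4.28, 3.96 and 5.85 CPM against 10.9, 27.7 and 5.52 CPM (-1.16 ± 0.69). In bulk RNA, fewer dividing cells and less RNA per dividing cell cannot be told apart. The G1/S and replication list had 16 of 43 positive and a median of -0.20, -0.39 and 0.09 within the codes and 0.12 without WT 1 and WT 2.

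Adhesion and IGF genes, which are abundant here, were mostly positive. All 15 desmosome and cadherin genes tested were positive, 5 with no overlap, and 13 were in the highest level bin, where 80.8% of all genes were positive and 19.3% had no overlap upwards. Their median was 0.39, 0.63 and 0.22 within the codes, and 0.25 without WT 1 and WT 2, where 11 of 15 were positive. In the IGF list 8 of 10 were positive, with a median of 0.26 (0.15 without WT 1 and WT 2), and Igfbp7 led it. Igf2r, the receptor that clears IGF2, had 202, 142 and 148 CPM against 138, 96.5 and 101 CPM and Igf1r, the signalling receptor, 242, 163 and 166 CPM against 172, 115 and 119.7 CPM. The Igf2r groups were apart and the Igf1r groups overlapped, with log2 differences of 0.65 ± 0.24 and 0.61 ± 0.25. Genes of the oxidative stress response had 13 of 18 positive and 6 with no overlap upwards, against 8.63% of all genes and 9.16% and 19.3% in the 2 highest level bins, which held 6 and 8 members. Their median was 0.32, and 0.35 without WT 1 and WT 2. Gclc, the enzyme that limits glutathione synthesis, was among the 6 (211, 196 and 371 CPM against 168, 74.8 and 123 CPM, 1.00 ± 0.42). Cytosolic ribosomal protein genes had 41 of 47 positive, with medians of 0.54 within the earlier code, -0.02 within the later one and 0.01 without WT 1 and WT 2. The highest level bin held 41 of these 47 genes.

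Markers of other skin cells were measured beside the cytokine genes above. The 20 Langerhans and myeloid markers summed to 44.9 to 149 CPM of all counts in Irx5KO and 74.0 to 118 in WT, and 2 of the 8 tested were positive. The 18 T cell markers summed to 165 to 187 CPM of all counts in Irx5KO and 228 to 1422 in WT, and 0 of 4 tested were positive. Fibroblast and dermal papilla markers summed to 549.5 to 754 CPM of all counts in Irx5KO and 691 to 943 in WT, with Lum and Dcn below the filter. Col1a1, collagen I of fibroblasts, had 90.0, 47.6 and 48.4 CPM against 134, 120.3 and 89.6 CPM (-0.70 ± 0.20). Of epidermal markers, the junctional zone and infundibulum list summed to 2214 to 4243 CPM of all counts in Irx5KO and 1405 to 2992 in WT. Irx5KO 3 had the highest sum, and Irx5KO 2, with 2214 CPM, lay below WT 1, with 2992. In this list 9 of 11 were positive, with medians of 0.10 within the earlier code and 0.78 within the later one. The suprabasal and cornified epidermis list had 14 of 19 positive and medians of -0.27 and 0.60 within the earlier and the later code, with 17 positive and a median of 0.63 without WT 1 and WT 2. Within the later code the medians were 0.44 for interfollicular basal epidermis and 0.37 for sebaceous gland, against 0.34 and -0.03 within the earlier one. Klk10, a kallikrein-related protease, had 23.0, 30.2 and 35.0 CPM against 18.5, 11.8 and 9.54 CPM (1.19 ± 0.38), all Irx5KO libraries being above. The part of these cells in the NF-kB and ERK values was not tested.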

How the data were processed

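Single-end reads were quantified with kallisto 0.46.2, per the labels' protocols; mm10 and DESeq2 stand in the submitters' processing notes. For each library the authors deposited an estimated count and a TPM value per transcript, per the file headers. The quantification divides reads among near-identical transcripts, so receptor genes and other families are uncertain, and no strand setting is stated. Of 118489 transcripts, 116816 matched a gene of GENCODE vM21, and their estimated counts were summed to genes and rounded. TPM served to compare levels between genes.

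Genes with at least 5 CPM in at least 4 of the 14 libraries were scaled by TMM and fitted with edgeR 4.0.16 (R 4.3.3; quasi-likelihood, robust, code and genotype as terms), with Benjamini-Hochberg adjustment over 12624 genes at 0.05. The SE is the log2 difference over the root of the F statistic, an approximation. Values within a code came from a fit with a genotype term in each code. The procedure was tested on simulated data. Alternatives were DESeq2 1.42.0, limma 3.58.1, other scalings and filters, all 14 libraries, no code term, a replicate block and each library left out. Leaving out WT 1 and WT 2 together and scaling without receptor genes were added after the data were seen.

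The members and gene lists were chosen with earlier results of these data known. Named genes were a set given by name, the 12 per direction with the smallest p among non-overlapping genes without a provisional name (since none passed), up to 6 per list by p, and members that show a role. Deviations from the group means of same-numbered libraries correlated across genes at 0.307, 0.123 and 0.263 for numbers 1 to 3. Libraries numbered 1 share the earlier code and those numbered 3 the later one, while Irx5KO 2 and WT 2 differ in code. Different-numbered libraries of the same code gave 0.066 (Irx5KO 1 and WT 2) and 0.0016 (Irx5KO 2 and WT 3). The replicate block takes the numbers as pairs, which the titles do not state, and whether they are pairs was not tested. The printed values come from the fit with the code and without that block, which is an alternative.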

Additional observations from a re-analysis of the deposited data

Results flagged for a closer look

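The difference between the genotypes was itself compared between the codes, gene by gene over 12624 genes. It passed for 1 gene, Gm8226, a processed pseudogene on chromosome 9; such copies can share reads with their parent gene. Its log2 difference within the later code minus that within the earlier code was 10.61 (edgeR, adjusted p = 0.0337). Gm8226 had 0.0301 CPM in Irx5KO 1 and 39.3 to 114 CPM in the other 5 libraries, so 1 library sets this result. At an unadjusted p under 0.05 the difference between codes was seen in 998 genes, 872 of them more positive within the later code.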

How the results depend on the processing

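With 0 genes called in each direction, DESeq2 gave 3 higher and 12 lower, TMM over more genes 32 and 80, and no expression filter 20 and 79. In the last 2 fits the estimated prior degrees of freedom were infinite, and the median of all genes moved to 0.29 and -0.65 (raw totals, -0.17). Leaving out WT 1 and WT 2 together gave 1 higher gene, and leaving out each library gave 0 to 1 lower (1, Gm8226, without WT 3). The replicate block, which treats same-numbered libraries as pairs, gave 0 in each direction, changed no other call and put Irx5 at -0.76. DESeq2 alone called Irx5, at -0.94. Of 2052 values for 114 genes, 51 in 19 genes changed sign, and the cause was not tested. TMM over more genes gave 0.078 for Axin2, 0.30 for Lef1, 0.16 for Prkdc, 0.17 for Sod2 and 0.035 for Xrcc5, and no filter 0.013 for Krt15, 0.10 for Axin2, 0.33 for Lef1, 0.19 for Prkdc, 0.21 for Sod2 and 0.067 for Xrcc5. The default filter gave 0.029 for Axin2, 0.24 for Lef1, 0.11 for Prkdc and 0.11 for Sod2. Raw totals gave -0.0056 for Irx3, -0.023 for Lgr5 and -0.091 for Xrcc6, sample weights 0.015 for Lef1 and no code term 0.053 for Lef1. Without WT 1 and WT 2 the values were -0.29 for Lgr5, 0.37 for Mki67, 0.74 for Brca1, 0.17 for Brca2, 0.23 for Lpl, 0.29 for Ereg, -0.23 for Fos, -0.34 for Jun, 0.0041 for Lef1 and 0.11 for Sod2. Leaving out each library gave -0.0077 to 0.31 for Irx3, -0.86 to 0.13 for Cd34, -0.30 to 0.55 for Lgr5, -1.41 to 0.11 for Fgf18, -1.28 to 0.34 for Mki67, -1.90 to 0.70 for Brca1, -1.01 to 0.36 for Krt15, -1.02 to 0.082 for Gli1, -2.81 to 0.14 for Brca2, -3.16 to 0.21 for Lpl, -0.76 to 0.35 for Axin2, -1.65 to 0.25 for Ereg, -0.26 to 1.17 for Fos, -0.37 to 1.10 for Jun, -0.38 to 0.23 for Lef1, -0.30 to 0.019 for Prkdc, -0.39 to 0.084 for Sod2 and -0.086 to 0.23 for Xrcc6. Of 54 lists, 27 kept the sign of their median in all 18 alternatives, with ranges of 0.64 to 1.09 for NF-kB and 0.58 to 1.01 for ERK. Homologous recombination (-0.63 to 0.05), end joining (-0.50 to 0.0041) and G2/M (-1.47 to 0.12) did not. The later code holds 1 WT library, so every value within it rests on WT 3. Values without Irx5KO 1 and those without WT 1 and WT 2 come from the later code alone and rest on WT 3 too. Values without WT 3 come from the earlier code alone.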

Other observations

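Of 14 genes of the hypoxia response tested, 11 were positive, 8 of them within both codes, 3 had all Irx5KO libraries above all WT libraries (8.63% of all genes) and none passed edgeR's adjustment. The median log2 difference was 0.39, with 0.57 and 0.46 within the codes and 0.49 without WT 1 and WT 2. Ndrg1, a stress-induced gene of differentiating epithelia, had 522, 451 and 539 CPM in Irx5KO 1 to 3 and 281, 119 and 343 CPM in WT 1 to 3. Its groups did not overlap, and the log2 difference was 0.96 ± 0.39. Plod2, a collagen lysyl hydroxylase, had 9.71, 19.0 and 9.81 CPM against 9.10, 7.04 and 4.87 CPM with no overlap (0.91 ± 0.51), and Vegfa, the angiogenic factor, 91.4, 40.5 and 86.0 CPM against 66.7, 37.1 and 40.8 CPM with overlap (0.72 ± 0.37).

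In the Hippo and YAP list all 12 genes tested were positive, 4 with no overlap, and the median was 0.33 (0.44 and 0.17 within the codes). Of the 12, 8 were in the highest level bin, where 80.8% of all genes were positive and 19.3% had no overlap upwards. Without WT 1 and WT 2, 10 were positive and the median was 0.19. Tead4, a DNA-binding partner of YAP, had 58.0, 42.5 and 41.3 CPM against 34.6, 31.0 and 35.7 CPM and no overlap (0.53 ± 0.22). Wwtr1, which encodes the coactivator TAZ, had 103, 196 and 273 CPM against 83.8, 44.1 and 138 CPM; Irx5KO 1 lay below WT 3, and the log2 difference was 0.73 ± 0.31. Interferon response genes were split, with 6 of 11 positive. Mx1, an interferon-induced antiviral protein, had 2.68, 4.39 and 5.65 CPM against 13.3, 42.6 and 6.72 CPM, all Irx5KO libraries being below and WT 2 the highest (-1.88 ± 0.97).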
